A study of Homo sapiens with 16 samples.

Results

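The DNA damage kinases and the proteins on which they and the phosphatase PPM1D act meet at the same phosphorylated sites, and 9 genes of this group are described here at the level of their mRNA. They are the kinases ATM, ATR and PRKDC, the effector kinases CHEK1, CHEK2 and MAPK14, and the chromatin proteins H2AFX, MDC1 and TP53BP1. They were chosen by name and all 9 were found among the 25369 genes of the count table. The libraries come from TPC1 and K1, human papillary thyroid carcinoma lines that express wild type p53. Cells of each line were kept for 24 h in 0.2% DMSO, the vehicle, in 10 µM nutlin, in 25 µM GSK2830371 or in both drugs. Nutlin releases p53 from its ubiquitin ligase MDM2, and GSK2830371 inhibits the catalytic activity of PPM1D. Each of the 8 groups holds 2 libraries of stranded polyadenylated RNA, 16 in all. K1 was derived from another thyroid line, and the lines were grown in different media. The study's reporting statement describes its replicates in general as independent biological ones, and the labels of these libraries do not name separate cultures. The p values below measure the spread between these libraries.

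ATM, ATR and the catalytic subunit of DNA-PK, encoded by PRKDC, are large kinases of the PI3K-related family. ATM and DNA-PK answer to broken DNA ends, and ATR to single-stranded DNA at stalled replication forks. ATM passes the signal to CHK2 (CHEK2), and ATR to CHK1 (CHEK1). All 3 kinases phosphorylate histone H2AX (H2AFX), on which MDC1 docks and around which 53BP1 (TP53BP1) gathers. MAPK14 encodes p38α, a stress kinase that acts on p53. PPM1D is itself induced by p53 and removes phosphate groups from ATM, CHK1, CHK2, p38 and H2AX, which closes a negative feedback loop. Read counts measure transcripts and hold nothing on phosphorylation or protein levels.

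The smallest and largest total counts were 30789887 and 76648552 among TPC1 libraries, and 28888686 and 37161241 among K1 libraries. The lowest count of any member in any library was 189, for CHEK2 in K1. The TPC1 columns are numbered 1 and 3, and the K1 columns 1 and 2, and values below follow that order. Both lines held the thyroid transcription factor PAX8, at 298 CPM (TMM-scaled read count relative to library size) or more in every library, and FOXE1 at 22.3 CPM or more. TSHR was at 0 in all libraries, SLC5A5 stayed under 1 CPM, and of the epithelial markers KRT8 and KRT18 were present while CDH1 and EPCAM stayed under 1 CPM. Of 6 markers of other cell types, PTPRC, CD3E, PECAM1 and CDH5 stayed below 0.2 CPM, DCN was at 0 in TPC1 and between 0.307 and 0.568 CPM in K1, and COL1A1 was between 0.705 and 5.10 CPM. With nutlin the thyroglobulin gene TG rose by 3.23 ± 0.35 on the log2 scale in TPC1 and 1.01 ± 0.13 in K1, and COL1A1, a fibroblast marker, fell by 1.03 ± 0.23 and 0.89 ± 0.20, while DCN, another, differed by -0.02 ± 0.41 in K1. KRT18 fell to 45.8% of its DMSO level in TPC1 (adjusted p = 5e-05, edgeR), where KRT19, under 1 CPM, rose by 1.93 ± 0.65, and neither was called in K1. The part of these shifts in the results was not tested. Nutlin raised CDKN1A, the p21 gene, by 5.61 ± 0.14 (SE) on the log2 scale in TPC1 and 3.16 ± 0.06 in K1, and MDM2 by 4.96 ± 0.11 and 3.04 ± 0.07. PPM1D stood at 14.8 and 16.9 CPM in TPC1 DMSO libraries, 59.8 and 61.8 after nutlin, 8.92 and 10.0 after GSK2830371 and 48.5 and 51.4 after both. In K1 it stood at 20.7 and 22.3 CPM in DMSO, 50.2 and 57.6 after nutlin, 18.1 and 18.4 after GSK2830371 and 39.9 and 45.8 after both. The phosphatase gene thus rose with nutlin in both lines (1.90 ± 0.09 and 1.32 ± 0.09 on the log2 scale, edgeR, adjusted p = 1.8e-07 and 7.8e-08). With GSK2830371 alone PPM1D fell by 0.74 ± 0.09 on the log2 scale in TPC1 (adjusted p = 0.0055), and its K1 difference was -0.24 ± 0.09 (adjusted p = 0.091). In these bulk samples, fewer cells of one kind and less RNA per cell cannot be told apart.

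On GRCh37 the 9 genes lie on 6 chromosomes. ATM spans chr11:108093771-108239829 on the forward strand, ATR chr3:142167849-142297575 on the reverse strand and PRKDC chr8:48685672-48872738 on the reverse strand. CHEK1 spans chr11:125495058-125546150 (forward), CHEK2 chr22:29083731-29138410 (reverse) and MAPK14 chr6:35995559-36079013 (forward). H2AFX spans chr11:118964584-118966175 (reverse), MDC1 chr6:30667584-30685224 (reverse) and TP53BP1 chr15:43695259-43802926 (reverse). The counts cover the exons of each gene. The members differ widely in build. H2AFX is the shortest, at 1592 bases for its longest annotated transcript with a GC content of 66.8%, higher than in 98.5% of the genes tested in K1. PRKDC, ATM, TP53BP1 and ATR have transcripts of 13458, 13130, 10369 and 8158 bases. ATM and ATR have the lowest GC contents, 39.4% and 39.7%. CHEK2 has 7 annotated partial copies elsewhere in the genome, named CHEK2P1 to CHEK2P7, so reads from it can be lost or shared and its level is uncertain. H2AX is a histone gene whose mRNA exists with and without a poly(A) tail, and these libraries hold the polyadenylated form.

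Relative to transcript length, H2AFX and PRKDC were by far the most abundant members in untreated cells. In DMSO, H2AFX stood at 167 and 214 CPM per kb in TPC1 and at 108 and 116 in K1, and PRKDC at 91.9 to 139 and at 68.8 to 70.5. The next in TPC1 were MDC1 (mean 20.4 CPM per kb), MAPK14 (18.2), CHEK1 (11.4), TP53BP1 (9.72), ATR (8.92), CHEK2 (8.17) and ATM (4.55). The libraries of TP53BP1 and ATR overlapped, as did those of ATR and CHEK2, and no other neighbors did. In K1 the order was MAPK14 (18.8), TP53BP1 (12.2), MDC1 (10.7), ATR (9.06), CHEK1 (6.82), ATM (5.24) and CHEK2 (3.57), with no overlap between neighbors. After both drugs PRKDC led in each line, at a mean of 51.0 CPM per kb in TPC1 and 40.4 in K1, with H2AFX at 20.9 and 39.4. MDC1 then stood eighth and CHEK1 last among the 9 genes in TPC1.

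Before any drug, 5 of the 9 members were expressed at a lower level in K1 than in TPC1. A gene is called when the adjusted p is under 0.05 and the fold change is above 1.5, and by this rule 21.2% of the 16738 genes tested were lower in K1. Differences are K1 minus TPC1 on the log2 scale. CHEK2 was lower by a fold of 2.30 (-1.20 ± 0.14, edgeR, adjusted p = 1e-06), MDC1 by 1.91 (-0.94 ± 0.08, adjusted p = 1.7e-08), H2AFX by 1.70 (-0.77 ± 0.12, adjusted p = 2.6e-05), CHEK1 by 1.67 (-0.74 ± 0.07, adjusted p = 9.5e-08) and PRKDC by 1.65 (-0.73 ± 0.17, adjusted p = 0.0012). In each case both TPC1 libraries lay above both K1 libraries. Without TPC1 DMSO library 1 the PRKDC difference became -0.40 (adjusted p = 0.034), and without library 3 that of H2AFX became -0.58 (adjusted p = 0.00045), both inside the fold of 1.5. ATM, ATR and MAPK14 differed by 0.21 ± 0.17, 0.03 ± 0.13 and 0.04 ± 0.06. TP53BP1 was 1.26-fold higher in K1 (0.33 ± 0.08, adjusted p = 0.0023), which does not reach the fold required.

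**Figure D1:**
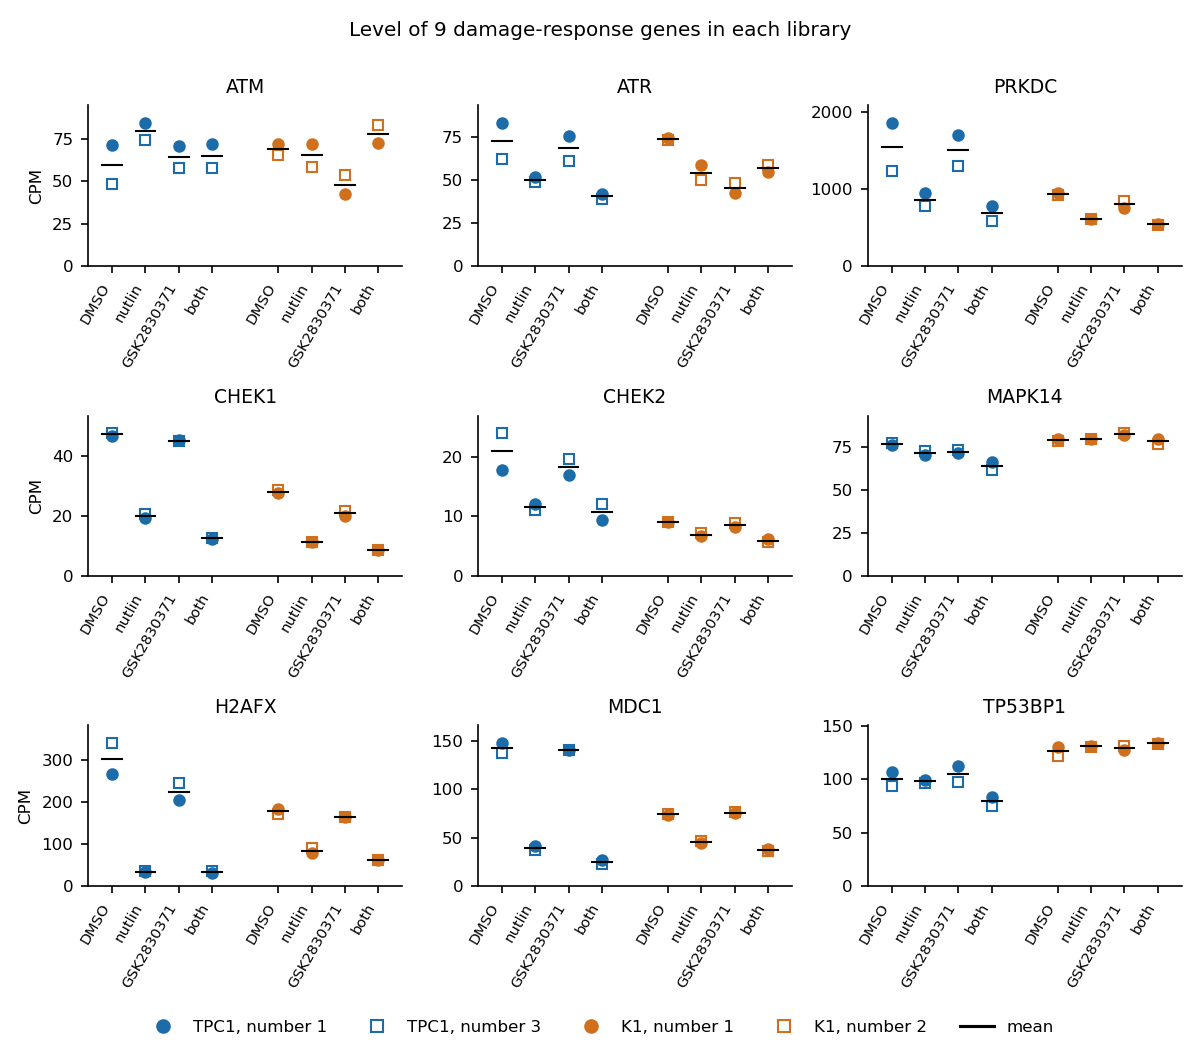
Level of each gene in every library (vertical axis, CPM from 0, a separate scale for each gene), by treatment along the horizontal axis, for TPC1 (blue) and K1 (orange). Points are libraries, with the shape giving the library number, and bars are means of 2. H2AFX falls from 266 and 341 to 33.4 and 36.4 CPM with nutlin in TPC1. MAPK14 lies between 61.8 and 83.6 CPM in all libraries, lowest in TPC1 with both drugs (66.7 and 61.8).

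In TPC1 the members that fell most with nutlin were H2AFX and MDC1, of the chromatin end of the pathway, and in K1 they came next after CHEK1. H2AFX, the histone variant whose phosphorylated form marks a break, stood at 266 and 341 CPM in TPC1 with DMSO and at 33.4 and 36.4 with nutlin. In K1 it stood at 184 and 172 CPM with DMSO and at 77.9 and 91.6 with nutlin. The groups were far apart in both lines, and nutlin left 11.3% of the DMSO level in TPC1 and 47.6% in K1. On the log2 scale H2AFX fell by 3.15 ± 0.14 in TPC1 and by 1.07 ± 0.07 in K1 (edgeR's quasi-likelihood test, adjusted p = 1.7e-07 and 7.8e-08). In TPC1 1.30% of the genes tested had a lower log2 fold change. MDC1, the adaptor that reads phosphorylated H2AX, stood at 148 and 137 CPM in TPC1 with DMSO and at 41.5 and 37.2 with nutlin. In K1 it stood at 73.9 and 75.0 CPM, and at 44.3 and 46.3 with nutlin. MDC1 thus fell by 1.89 ± 0.10 in TPC1, to 26.9%, and by 0.72 ± 0.06 in K1, to 60.9% (adjusted p = 6e-07 and 6.4e-07). TP53BP1, which competes with BRCA1 over how a break is repaired, was not called in either line. It stood at 107 and 94.0 CPM in TPC1 DMSO libraries and at 99.0 and 96.8 after nutlin, and in K1 at 130 and 122 and then at 131 and 130. Its differences were -0.08 (95% interval -0.33 to 0.18) and 0.05 (-0.07 to 0.16).

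With all libraries, 5 of the 9 members were called lower with nutlin in TPC1 and 4 in K1, and none higher. Over all genes tested, 18% were called lower in TPC1 and 5.43% in K1. The median log2 fold change of the members was -0.88 in TPC1 and -0.44 in K1, while that of all genes was within 0.01 of 0. The 5 in TPC1 were H2AFX, MDC1, CHEK1, CHEK2 and PRKDC, and those in K1 the same without CHEK2.

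CHEK1 was the kinase with the largest fall, by nearly the same fold in both lines. This effector of ATR, which restrains CDC25 phosphatases and holds the cell cycle, stood at 46.6 and 47.7 CPM in TPC1 DMSO libraries and at 19.2 and 20.6 with nutlin. In K1 it went from 27.7 and 28.6 CPM to 11.4 and 11.3. The replicates lay close together and far from the other group, with falls by 1.28 ± 0.08 and 1.31 ± 0.08 on the log2 scale (edgeR, adjusted p = 9.6e-07 and 3.2e-08). CHEK2, the effector of ATM, stood at 17.8 and 24.0 CPM in TPC1 and at 12.0 and 11.1 with nutlin. In K1 it stood at 9.14 and 9.15 CPM and at 6.68 and 7.25 with nutlin. It fell by 0.90 ± 0.15 in TPC1 (adjusted p = 0.00083), while its K1 difference of -0.39 ± 0.11 had an adjusted p of 0.013 but a fold of 1.31. MAPK14 stood at 76.5 and 77.6 CPM in TPC1 and at 70.9 and 72.8 with nutlin, and in K1 at 79.9 and 79.0 and at 79.9 in both nutlin libraries. Its difference was -0.14 (95% interval -0.31 to 0.03) in TPC1 and 0.01 (-0.10 to 0.12) in K1, so that any change of p38α mRNA lies within a fold of 1.5.

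The apical kinases separated from each other. PRKDC, the catalytic subunit that joins broken ends with the Ku proteins, stood at 1864 and 1237 CPM in TPC1 DMSO libraries and at 947 and 786 with nutlin. In K1 it went from 948 and 926 CPM to 614 and 619. The groups did not overlap in either line, and PRKDC fell by 0.88 ± 0.23 in TPC1 and by 0.60 ± 0.06 in K1 (edgeR, adjusted p = 0.01 and 3.8e-06). In TPC1 the fit without a block was sensitive to the spread between library 1 and library 3. Without DMSO library 1 the difference was -0.52 (adjusted p = 0.07), and without nutlin library 3 it was -0.74 (adjusted p = 0.075). With the library number as a block it was -0.85 ± 0.07 (adjusted p = 3.5e-08). ATR stood at 83.4 and 62.1 CPM in TPC1 and at 51.6 and 49.0 with nutlin, and in K1 at 74.3 and 73.5 and at 58.7 and 50.0. Its differences of -0.57 ± 0.16 and -0.44 ± 0.08 (adjusted p = 0.014 and 0.00089) stayed inside the fold of 1.5, at 1.48 and 1.36. The TPC1 difference of ATR passed that fold when scaled by library size alone (-0.60). It also did so without DMSO library 3 (-0.77) or nutlin library 1 (-0.61). With all libraries, ATM was called in neither line. It stood at 71.1 and 48.5 CPM in TPC1 DMSO libraries and at 84.4 and 74.5 with nutlin, without overlap, and in K1 at 71.9 and 65.6 and at 72.1 and 58.3. The TPC1 difference was 0.37 ± 0.20 (edgeR, adjusted p = 0.14), and 0.40 ± 0.08 with the block (adjusted p = 0.00031), a fold below 1.5 in both fits. Without TPC1 DMSO library 1 it was 0.70, past that fold. The ATM difference in K1 was -0.08 ± 0.11.

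In all 4 TPC1 treatments, library 1 lay above library 3 for ATM, ATR, PRKDC and TP53BP1, the 4 members with the longest transcripts. MDC1, which has the next longest, had the same sign, but with GSK2830371 its libraries were nearly equal (library 3 to library 1, -0.009 on the log2 scale). In DMSO the log2 difference of library 3 to library 1 was -0.55 for ATM, -0.42 for ATR and -0.59 for PRKDC, against a median of -0.26 for all genes with transcripts over 8 kb and 0.05 for all genes. H2AFX, the shortest member, had the opposite sign at 0.36. The part of transcript length or RNA quality in these shifts was not tested.

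**Figure D2:**
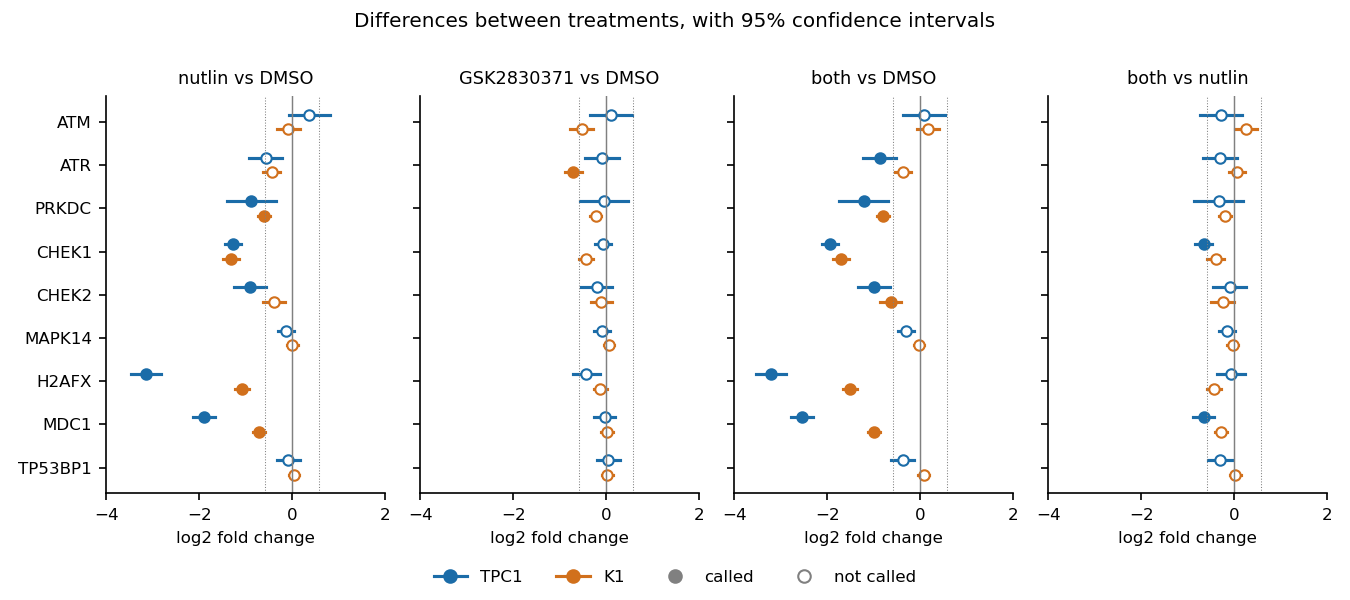
Log2 fold change of each gene (horizontal axis) in 4 comparisons, for TPC1 (blue) and K1 (orange). Points are estimates from edgeR, bars are 95% confidence intervals, filled points are called, and dotted lines mark a fold of 1.5. H2AFX and MDC1 lie farther to the left in TPC1 (-3.15 and -1.89 with nutlin) than in K1 (-1.07 and -0.72), while the CHEK1 intervals of the lines overlap for nutlin.

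H2AFX and MDC1, the members with the largest falls in TPC1, are shown with the 250 bases before their start in RefSeq (GRCh38.p14), since they moved together. H2AFX (listed there as H2AX) lies at chr11:119095466-119095715 and MDC1 at chr6:30717282-30717531, both on the reverse strand, and each is printed 5′ to 3′ toward the gene. Capitals mark motifs searched on both strands, which are the cell cycle homology element TTTGAA (reverse TTCAAA), the CCAAT box (reverse ATTGG) and the E2F words TTGGCGC and TTCCCGC with their reverse complements.
H2AFX: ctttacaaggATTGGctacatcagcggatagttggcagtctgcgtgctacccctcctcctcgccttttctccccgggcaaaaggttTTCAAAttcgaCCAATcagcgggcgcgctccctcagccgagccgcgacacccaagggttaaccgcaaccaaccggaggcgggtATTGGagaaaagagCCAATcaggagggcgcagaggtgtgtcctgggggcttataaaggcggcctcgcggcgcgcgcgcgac
MDC1: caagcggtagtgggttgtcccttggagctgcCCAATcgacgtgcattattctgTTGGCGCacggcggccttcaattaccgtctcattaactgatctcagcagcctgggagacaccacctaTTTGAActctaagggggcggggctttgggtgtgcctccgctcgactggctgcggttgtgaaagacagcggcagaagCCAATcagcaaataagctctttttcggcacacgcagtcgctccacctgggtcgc
The H2AFX stretch holds CCAAT boxes starting 240, 153, 81 and 67 bases before the start and a TTCAAA 164 bases before it. That of MDC1 holds CCAAT boxes at 219 and 54 bases, the E2F word TTGGCGC at 197 and TTTGAA at 130. None of these matches overlaps another. Over the same window in 27305 genes, 16.1% hold TTTGAA, 37.0% a CCAAT box, 9.40% an E2F word and 5.79% both TTTGAA and a CCAAT box, each on either strand. Of 8 members with an entry, 3 hold TTTGAA (H2AFX, MDC1 and ATM, the last of which was not called lower), 7 a CCAAT box and 1 an E2F word, counting every listed start. The matches are a description of the letters and no evidence of binding.

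The genes that work with the members moved in part along with them. In 9 lists of 68 genes (PI3K-related kinases and their TTT chaperone, ATM activation, ATR activation, chromatin factors, end joining, CDC25 and WEE1, the p38 module, phosphatases and the p53 circuit), 33 were called lower and 8 higher with nutlin in TPC1, and 19 and 4 in K1. Over all genes tested, 18% were called lower and 17.5% higher in TPC1, and 5.43% and 3.84% in K1. In the ATR arm, 9 of 13 genes were lower in TPC1 and 8 in K1 (medians -1.15 and -0.74). CLSPN, encoding claspin, which brings CHK1 to ATR, fell by 5.20 ± 0.16 in TPC1 and by 2.66 ± 0.10 in K1 (edgeR, adjusted p = 1.5e-08 and 4.2e-10). The fork protection partners TIPIN, which fell by 1.97 ± 0.12 in TPC1, and TIMELESS, which fell by 1.30 ± 0.08 in K1, moved with it. Of 10 chromatin factors, 7 were lower in TPC1 and 3 in K1. BARD1 fell by 4.55 ± 0.16 and 2.49 ± 0.13 and its partner BRCA1 by 2.72 ± 0.12 and 1.69 ± 0.10, the ubiquitin ligase that opposes TP53BP1. All 5 genes of the CDC25 and WEE1 list were lower in both lines (medians -2.72 and -1.20). CDC25A fell by 4.07 ± 0.10 in TPC1 and 2.34 ± 0.12 in K1, CDC25C by 3.96 ± 0.20 in TPC1 and PKMYT1 by 1.76 ± 0.09 in K1. Mean CDC25C in K1 went from 12.4 CPM with DMSO to 6.8 with nutlin, and mean PKMYT1 in TPC1 from 69 to 10.8.

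Among the relatives and chaperones of the apical kinases and among the ATM activators, a smaller share of genes was lower than in the ATR arm. Of 6 relatives and chaperones 2 were lower in TPC1, TELO2 (which fell by 1.31 ± 0.08) and TTI1 (which fell by 1.22 ± 0.08), both of the complex that folds these kinases. In K1 0 of the 6 were called by edgeR and 0 by DESeq2, with 2 at an unadjusted p under 0.05, the same pair, which differed by -0.51 ± 0.07 and -0.58 ± 0.06 (adjusted p = 8.8e-05 and 9.3e-06), inside the fold of 1.5. Of 5 ATM activators, MRE11A fell in both lines (0.73 ± 0.10 and 0.89 ± 0.13) and NBN in TPC1 (by 0.84 ± 0.09). The Ku genes XRCC6 and XRCC5, partners of PRKDC, fell by 0.77 ± 0.09 and 0.66 ± 0.10 in TPC1, where 3 of 6 end joining genes were lower and 1, LIG4, higher (0.62 ± 0.10, adjusted p = 0.00053). In the p38 module 3 of 10 genes were called higher and 2 lower in TPC1 and 1 each in K1, counts near the shares over all genes given above. MAPK13, another p38 kinase, rose by 1.03 ± 0.08 in TPC1 and 0.70 ± 0.09 in K1, MAPK11 by 0.97 ± 0.08 in TPC1, and MAP3K5, upstream of p38, fell by 0.75 ± 0.12 in K1. Mean MAP3K5 in TPC1 also went down, from 54.2 CPM with DMSO to 33.5 with nutlin. Among 8 phosphatases, PPM1A rose besides PPM1D in TPC1 (1.32 ± 0.08, adjusted p = 1.3e-06), and 2 fell there.

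The falls of the members came with those of proliferation genes. Of 20 such genes 19 were called lower with nutlin in TPC1 and 18 in K1, with medians of -3.70 and -1.64 on the log2 scale. CCNE2, a cyclin of S phase entry, fell by 6.77 ± 0.26 and 4.19 ± 0.15, MKI67 by 5.62 ± 0.22 in TPC1 and E2F1 by 2.53 ± 0.09 in K1. Mean MKI67 in K1 also went from 521 CPM with DMSO to 208 with nutlin, and mean E2F1 in TPC1 from 50.9 to 3.01. The part of the cycling fraction of the cells in the falls of the members was not tested.

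**Figure D3:**
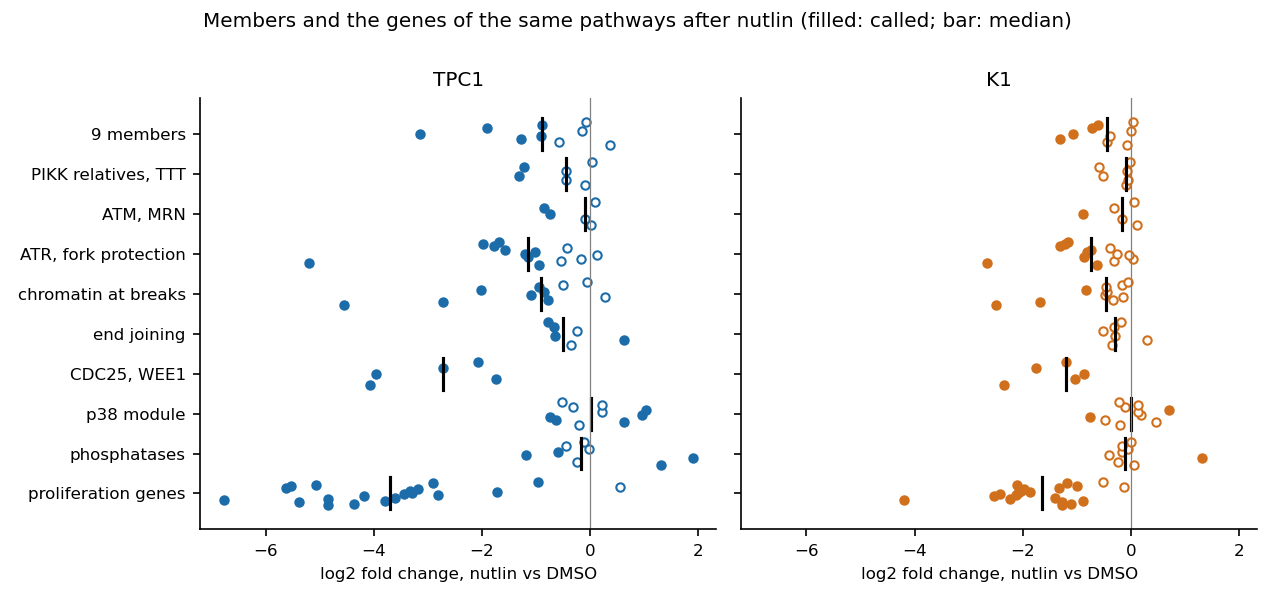
Log2 fold change with nutlin (horizontal axis, the same in both panels) of the 9 genes, of 8 of the pathway lists, without the p53 circuit, and of the proliferation genes (rows), for TPC1 and K1. Each point is a gene, filled where called, and the vertical bar is the median of the list. The lowest median is that of the proliferation genes (-3.70 in TPC1, -1.64 in K1) and the highest of those drawn is that of the p38 module (0.01 in both).

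With GSK2830371 alone, few members were called. In TPC1 it was 0 of the 9 by edgeR and 0 by DESeq2, with 1 (H2AFX) at an unadjusted p under 0.05, and 0.681% of the genes tested were called lower. The 9 differences ran from -0.43 to 0.11. H2AFX had the lowest, with 204 and 246 CPM against 266 and 341 in DMSO. Its difference was -0.43 ± 0.13 (edgeR, adjusted p = 0.11), and -0.43 ± 0.06 with the library number as a block (adjusted p = 0.00017), a fold of 1.35. The block raised the calls over all genes in this comparison from 214 to 480 of 15273. Without the block, intervals of the TPC1 differences reached from -0.34 to 0.56 for ATM and from -0.57 to 0.48 for PRKDC, so smaller changes of these genes could be missed in that fit. With the block their differences were 0.13 ± 0.08 and -0.03 ± 0.07 (edgeR, adjusted p = 0.27 and 0.82).

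In K1 the apical kinase ATR fell with GSK2830371. It stood at 74.3 and 73.5 CPM in DMSO and at 42.6 and 48.4 with the inhibitor, a fall that measured -0.70 ± 0.08 on the log2 scale (edgeR, adjusted p = 0.00033). It was the 1 member called, where 1.5% of the genes tested were called lower. ATM stood at 71.9 and 65.6 CPM in DMSO and at 42.2 and 53.5 with the inhibitor, and its difference was -0.52 ± 0.11 (adjusted p = 0.0061, a fold of 1.44). It passed the fold without K1 DMSO library 2 (-0.59) or GSK2830371 library 2 (-0.70). CHEK1 went from 27.7 and 28.6 CPM to 20.1 and 21.8 (-0.43 ± 0.07, adjusted p = 0.0017), and PRKDC from 948 and 926 to 753 and 852 (-0.22 ± 0.06, adjusted p = 0.017), both inside the fold of 1.5. For these 4 genes both inhibitor libraries lay below both DMSO libraries. The chromatin members and MAPK14 were not called, with H2AFX at 165 and 164 CPM, MDC1 at 75.3 and 76.1 and TP53BP1 at 127 and 131 CPM, and MAPK14 at 82.5 and 83.6.

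The GSK2830371 effect in K1 ran with the GC content of the exons across all genes. The median log2 fold change was -0.31 over 1198 genes under 38% GC, -0.21 over 1084 genes from 38% to 40%, where ATM and ATR lie, and 0.13 over 1560 genes of 60% or more. In TPC1 the same medians were 0.03, 0.02 and -0.01. Of the K1 genes from 38% to 40% GC, 5.07% were called lower. With a trend on GC content and transcript length removed, ATR in K1 differed by -0.49 ± 0.06 (edgeR, adjusted p = 0.00075) and ATM by -0.30 ± 0.08 (adjusted p = 0.029), both inside the fold of 1.5. The part of GC content in these differences was otherwise not tested. Of the 20 proliferation genes, 3 were called lower with GSK2830371 in K1 and 0 in TPC1 (medians -0.21 and -0.34). Over all genes tested, 1.5% and 0.681% were. CDKN1A rose by 1.01 ± 0.06 in K1 and differed by 0.28 ± 0.12 in TPC1 (edgeR, adjusted p = 2.8e-06 and 0.22). The part of the cycling fraction of the cells was not tested here either. Of the 13 genes of the ATR arm 2 were called lower with GSK2830371 in K1, against 1.5% of all genes. They were ETAA1 and TOPBP1, and with the trend removed neither was called (-0.29 ± 0.10 and -0.55 ± 0.06, adjusted p = 0.073 and 0.00033).

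**Figure D4:**
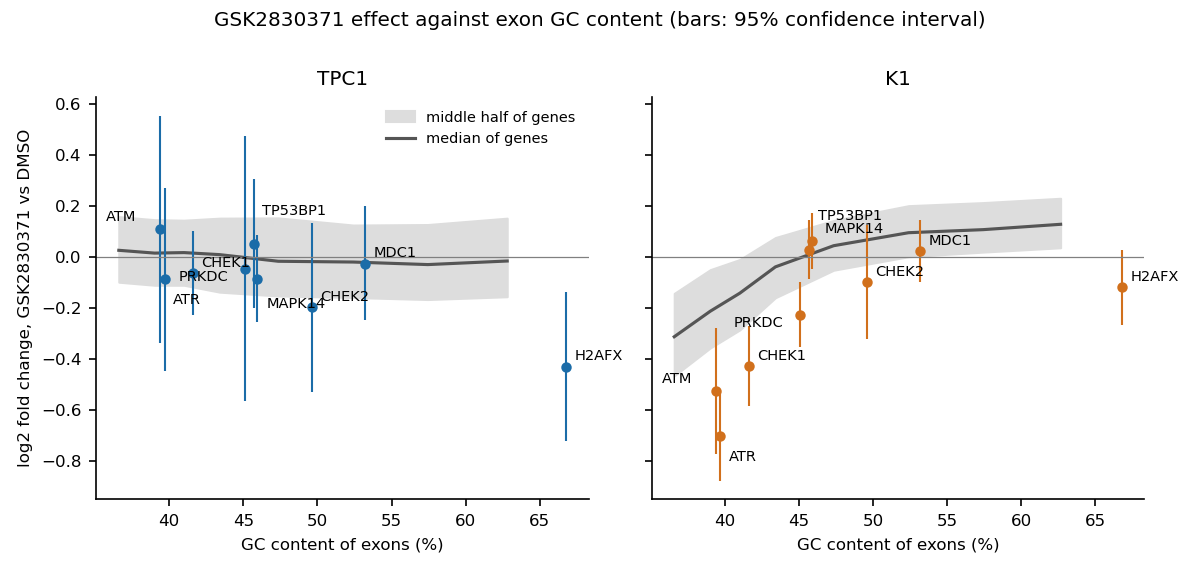
Log2 fold change of GSK2830371 against DMSO (vertical axis) by exon GC content in percent (horizontal axis), in TPC1 and K1. Colored points are the 9 genes with 95% confidence intervals, the line is the median of all genes of at least 1 CPM in bins of GC content, and the grey band holds the middle 50% of them. In K1 the line climbs from -0.31 to 0.13 and ATR and ATM lie below it, while in TPC1 it stays between -0.03 and 0.03.

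Each member called lower with nutlin was also called lower with both drugs. Against DMSO, 6 members were called lower in TPC1, where 21.7% of the genes tested were, and 5 in K1, where 8.09% were. H2AFX stood at 30.3 and 36.3 CPM in TPC1 and at 62.0 and 63.4 in K1, which is 10.8% and 35.2% of the DMSO level (log2 falls by 3.21 ± 0.14 and 1.51 ± 0.07, edgeR, adjusted p = 1e-07 and 2.1e-09). MDC1 stood at 26.6 and 23.2 CPM in TPC1 and at 38.6 and 36.4 in K1, which is 17.1% and 50.4%. CHEK1 stood at 12.5 and 12.7 CPM and at 8.64 and 8.61, which is 26.2% and 30.6%. PRKDC, at 786 and 585 CPM in TPC1 and 545 and 541 in K1, fell by 1.21 ± 0.23 and 0.79 ± 0.06. CHEK2 fell by 0.99 ± 0.15 in TPC1, to 9.46 and 12.0 CPM, and by 0.63 ± 0.11 in K1, to 6.16 and 5.65 CPM, a call lost without K1 library 2 of the combination (-0.57). ATR was called in TPC1 only, at 42.1 and 39.1 CPM (a fall by 0.87 ± 0.16, adjusted p = 0.0012), and stood at 55.0 and 59.1 CPM in K1 (-0.37 ± 0.08). The difference between the lines for ATR was 0.47 ± 0.18 (adjusted p = 0.051). In TPC1, MAPK14 and TP53BP1 differed from DMSO by -0.291 ± 0.075 and -0.375 ± 0.113 (edgeR, adjusted p = 0.0077 and 0.016), inside the fold of 1.5. In K1 they differed by -0.017 ± 0.052 and 0.080 ± 0.053. ATM differed by 0.09 ± 0.20 in TPC1 and 0.18 ± 0.11 in K1 (adjusted p = 0.7 and 0.21). These comparisons share the DMSO libraries with those of each drug alone.

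The comparison of both drugs with nutlin asks what PPM1D inhibition adds once p53 is released. In TPC1, CHEK1 and MDC1 were called lower, where 5.66% of the genes tested were. CHEK1 went from 19.2 and 20.6 to 12.5 and 12.7 CPM and MDC1 from 41.5 and 37.2 to 26.6 and 23.2. Neither pair of groups overlapped, and both genes fell by 0.65, with SE 0.08 and 0.10 (edgeR, adjusted p = 0.00053 and 0.0022). The MDC1 call was lost without nutlin library 1 (-0.57) or combination library 3 (-0.54), and with the GC and length trend removed (-0.58). In K1 0 members were called by edgeR and 0 by DESeq2, with 5 at an unadjusted p under 0.05, where 1.52% of the genes tested were called lower. There CHEK1, H2AFX and MDC1 had adjusted p values of 0.01, 0.0018 and 0.0098 at differences of -0.39 ± 0.09, -0.44 ± 0.07 and -0.27 ± 0.06. H2AFX went from 77.9 and 91.6 to 62.0 and 63.4 CPM in K1, but in TPC1 it had already reached 33.4 and 36.4 CPM with nutlin and stood at 30.3 and 36.3 with both (-0.06 ± 0.13). MAPK14 and TP53BP1 differed by -0.16 ± 0.08 and -0.30 ± 0.11 in TPC1 and by -0.03 ± 0.05 and 0.03 ± 0.05 in K1. TP53BP1 in TPC1, at 83.3 and 75.3 CPM after 99.0 and 96.8, had an adjusted p of 0.086, and 0.0012 with the block (-0.30 ± 0.06).

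Few genes of the lists passed the test in this comparison. In TPC1 5 of the 68 genes were lower and 3 higher, and in K1 4 and 2, against 5.66% and 6.46% of all genes tested in TPC1 and 1.52% and 1.16% in K1. CDC25C fell by 1.58 ± 0.31 and PKMYT1 by 0.76 ± 0.10 in TPC1, and CDC25B by 0.88 ± 0.12 and WEE1 by 0.76 ± 0.12 in K1, along with BARD1 by 0.87 ± 0.19. MAP3K5 and MAP2K6 of the p38 module fell by 0.84 ± 0.09 and 0.82 ± 0.15 in TPC1. CDKN1A rose by 0.87 ± 0.12 in TPC1 and 0.60 ± 0.06 in K1, MDM4 by 0.70 ± 0.13 in TPC1 and MDM2 by 0.63 ± 0.06 in K1 (edgeR, adjusted p = 6.7e-05). Of the proliferation genes 8 were lower in TPC1 and 9 in K1, with PLK1 falling by 0.86 ± 0.12 and 1.68 ± 0.17, MKI67 by 1.36 ± 0.20 in TPC1 and CCNA2 by 1.55 ± 0.17 in K1. Mean MKI67 in K1 also went from 208 CPM with nutlin to 89.3 with both, and mean CCNA2 in TPC1 from 3.19 to 2.07.

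The interaction compares the effect of both drugs with the sum of their single effects on the log2 scale. In TPC1 it was negative for CHEK1 (-0.59 ± 0.11, edgeR, adjusted p = 0.013) and MDC1 (-0.63 ± 0.14, adjusted p = 0.031), where 3.5% of the genes tested were called negative. The calls sat close to the limits. Leaving out 1 library at a time left between 0 and 2 of the 9 genes called, and with the library number as a block both kept their values, at -0.59 ± 0.10 and -0.63 ± 0.09 (adjusted p = 0.00044 and 9e-05). The block raised the calls over all genes from 965 to 1573. In K1 it was positive for ATM (0.78 ± 0.16, adjusted p = 0.014) and ATR (0.77 ± 0.12, adjusted p = 0.0055), where 1.79% of the genes tested were called positive. ATM stood at 42.2 and 53.5 CPM with GSK2830371 alone. With both drugs it stood at 72.5 and 83.3 CPM, not called against the 71.9 and 65.6 of DMSO. With the GC and length trend removed both values were 0.52, inside the fold of 1.5, and without nutlin library 2 they were 0.64 and 0.66 (adjusted p = 0.099 and 0.052). The median interaction of K1 genes from 38% to 40% GC was 0.23.

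Against GSK2830371 alone, the combination lowered 6 members in TPC1, where 19% of the genes tested were called lower, and 3 in K1, where 6.75% were. The largest differences were those of H2AFX (-2.78 ± 0.14 and -1.39 ± 0.07), MDC1 (-2.52 ± 0.11 and -1.01 ± 0.06) and CHEK1 (-1.87 ± 0.08 and -1.28 ± 0.08). In TPC1, PRKDC fell by 1.16 ± 0.23, CHEK2 by 0.79 ± 0.15 and ATR by 0.78 ± 0.16. ATM was the 1 member called higher, in K1 (0.71 ± 0.11, edgeR, adjusted p = 0.00024), where 6.3% of the genes tested were called higher, and the call was lost with the GC and length trend removed (0.46) or without GSK2830371 library 1 (0.54).

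The lines differed in how far H2AFX and MDC1 fell. The nutlin effect on H2AFX was 2.05 ± 0.17 weaker in K1 on the log2 scale (edgeR over 16 libraries, adjusted p = 2.3e-07) and that on MDC1 1.14 ± 0.11 weaker (adjusted p = 1.2e-06), and over all genes 8.73% had a difference called in that direction. For the combination the differences were 1.68 ± 0.17 and 1.53 ± 0.11 (adjusted p = 1.2e-06 and 3.4e-08), against 11.9% of genes. H2AFX and MDC1 started 1.70- and 1.91-fold higher in TPC1 and ended lower there, with H2AFX at 33.4 and 36.4 CPM in TPC1 and 77.9 and 91.6 in K1 with nutlin. The responses of CDKN1A and MDM2 to nutlin also differed between the lines (-2.48 ± 0.15 and -1.95 ± 0.12, K1 minus TPC1), as did the median of the proliferation genes given above. For CHEK1 the lines differed by -0.07 (95% interval -0.30 to 0.15), which leaves out a fold of 1.5, and for CHEK2, ATR, ATM and PRKDC by 0.48 ± 0.21, 0.09 ± 0.18, -0.49 ± 0.24 and 0.23 ± 0.24 (none called). Without TPC1 DMSO library 1, ATM (-0.79) and CHEK2 (0.67) also passed the test, and for the combination ATR (0.67) and PRKDC (0.66) did without TPC1 DMSO library 3.

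For GSK2830371 alone, 0 members were called between the lines by edgeR and 1 (ATR) by DESeq2, with 3 at an unadjusted p under 0.05, and 1.58% of the genes tested were called lower. ATR and ATM differed by -0.61 ± 0.18 and -0.63 ± 0.24 (edgeR, adjusted p = 0.063 and 0.14). With the library number as a block the values were -0.62 ± 0.13 and -0.65 ± 0.16 (adjusted p = 0.0041 and 0.0097) and both were called. With the GC and length trend removed both were -0.35 (adjusted p = 0.12 and 0.13). In the comparison of both drugs with nutlin, MDC1 differed by 0.39 ± 0.12 (adjusted p = 0.047), inside the fold of 1.5. There 0 members were called by edgeR or DESeq2, with 4 at an unadjusted p under 0.05, and 2.56% of the genes tested were called lower.

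The genes whose levels ran most like each member were sought over the 16 libraries among 11622 genes, after the mean of each line was taken from the log2 CPM. These correlations describe libraries that share treatments and depth and carry no test. H2AFX was most like HIRIP3 (Pearson r = 0.997), the histone variant gene H2AFZ (0.996) and POLD2, a DNA polymerase delta subunit (0.995). MDC1 was most like CIT, PATZ1 and CTDSPL (0.994 each) and CHEK1 like MTHFD1 (0.989), FGD5-AS1 (0.987) and RAD54B (0.986), a recombination gene. CHEK2 was most like HMCES (0.979), TMEM106C and SEPHS1 (0.975 each), and PRKDC like MTR, PRRC2A and FARP2 (0.975 each). ATR ran with SCAF11 (0.980), SLK (0.973) and KIAA0947 (0.971), and ATM with XRN1 (0.967), BRWD1 (0.963) and USP34 (0.954). MAPK14 and TP53BP1, which varied least, had weaker matches, with UBAP2L (0.952), MAP3K11 (0.947) and OBSL1 (0.942) for the former and MAVS (0.923), LPIN1 (0.917) and ELK3 (0.914) for the latter. Among the members, H2AFX and MDC1 correlated at 0.970 and H2AFX and CHEK2 at 0.956. The most negative values of ATM were with CHEK2 (-0.554), H2AFX (-0.488), CHEK1 (-0.373) and MDC1 (-0.371).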

How the data were processed

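The 16 libraries hold stranded polyadenylated RNA of the 8 groups. The authors aligned trimmed single-end reads to GRCh37 with TopHat2 2.0.13, dropped reads of low mapping quality and counted exon reads on the transcript's strand with HTSeq 0.6.1, so the deposited values are raw read counts per gene symbol. Versions are from the submitters' processing notes. Alignment was not repeated. In TPC1, 4 columns numbered 3 have no such number in the labels and were assigned to their treatment only. The genes and lists were chosen with earlier results of these data known.

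Genes above 0.1 CPM in at least 2 libraries were kept, 15273 in TPC1 and 15900 in K1. edgeR 4.0.16 in R 4.3.3 fitted the 8 libraries of a line together (TMM scaling, quasi-likelihood test, no block), and all 16 libraries (16738 genes) for differences between lines. P values were adjusted by Benjamini-Hochberg over all genes tested. Intervals cover 95%. CPM printed were scaled over all 16 libraries. Transcript lengths, GC contents and positions come from GENCODE v44lift37, in which 89.6% of symbols were matched.

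Library numbers paired the TPC1 samples. The log2 differences between replicates correlated at 0.494 to 0.698 between treatments, across 12318 genes, which are not independent. Fits with the number as a block were therefore added. Alternatives changed the scaling, the filter, the test (DESeq2 1.42.0 Wald), the samples fitted, or removed a GC and length trend, and left out each library. The scripts were tested on simulated data. All 9 members were named, as were up to 2 called genes of at least 1 CPM with the largest change per list and line for nutlin and for both drugs against nutlin, and the 3 genes most like each member. A list gene named for 1 line can thus have changed in the other as well. Genes that a sentence singles out beyond these (LIG4, ETAA1, TOPBP1) were chosen after their values were seen.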

Additional observations from a re-analysis of the deposited data

Results flagged for a closer look

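The responses of H2AFX and MDC1 differed between TPC1 and K1 by a test of the difference itself (edgeR, K1 minus TPC1 on the log2 scale). With nutlin the difference was 2.05 for H2AFX and 1.14 for MDC1, and with both drugs it was 1.68 and 1.53. Both libraries of each line showed the fall. Leaving out 1 library at a time gave 1.85 to 2.21 and 1.06 to 1.22 with nutlin, and 1.49 to 1.85 and 1.39 to 1.63 with both drugs.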

How the results depend on the processing

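Of 2898 values of a member under an alternative, 2839 kept their call or lack of one, 36 lost a call and 23 gained one, and none of the called values reversed. Many were of members not called, or left out a library that does not enter the comparison, where little can move. The share kept is therefore no measure of how firm the calls are. With the GC and length trend removed, alone or with the replicate block, the number of the 9 genes called became 0 in place of 1 for GSK2830371 in K1, 0 in place of 2 for the K1 interaction, 1 in place of 2 for both drugs against nutlin in TPC1 and 1 in place of 2 for the TPC1 interaction. That interaction also gave 1 with RLE scaling and with DESeq2. The difference between the lines for GSK2830371 gave 2 in place of 0 with no filter and with the replicate block, and 1 with DESeq2. The block changed no other number by more than a fold of 1.5. In K1 the numbers of the libraries did not pair them, since replicate differences correlated at -0.359 to 0.379 between treatments, and the block left each K1 number of called members as it was. Leaving out each library in turn gave 1 to 2 for GSK2830371 in K1, 0 to 2 for the interaction in K1 and in TPC1, 1 to 2 for both drugs against nutlin in TPC1, and between the lines 0 to 2 for GSK2830371, 2 to 4 for nutlin and 2 to 4 for both drugs. In the other comparisons no alternative moved the number by more than a fold of 1.5. CHEK2, with 189 reads in its lowest library, is the member most limited by depth. With 2 libraries a group, small changes can be missed. The intervals printed come from fits without the block, which in TPC1 gave larger errors for several members. The causes of these shifts were not tested, except that fewer libraries enter when 1 is left out.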
